A study of Mus musculus with 12 samples.

Results

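The 10 genes described here encode secreted and cell-surface proteins of pericellular proteolysis, namely the matrix metalloproteinases Mmp8, Mmp12, Mmp13, Mmp14 and Mmp19, their inhibitors Timp1 and Timp2, the membrane metalloproteinase Adam8, the plasminogen activator urokinase (Plau) and its receptor (Plaur). They were chosen by name, with earlier results of these data known, so shares of called genes among them are a description only. All 10 were found among the 38887 genes quantified. They were measured by RNA-Seq in mouse bone marrow-derived macrophages (BMMs) that had been differentiated with 50 ng/ml M-CSF for 6 days and were then left untreated (M0) or exposed to 20 ng/ml IL-4 for 8 h (M2). There were 3 libraries in each of the groups WT M0, KO M0, WT M2 and KO M2. KO mice carried Cre in the Lyz2 locus and Igf2bp2 alleles with loxP sites around exons 4 and 5, which removes the RNA-binding protein IGF2BP2 from myeloid cells. WT littermates had no floxed alleles and carried Cre or not. Animals were 3 to 4 months old and matched for sex and age.

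Matrix metalloproteinases are zinc-dependent enzymes that are made as inactive proforms and that cleave collagens, elastin and other matrix proteins once activated. TIMPs block them by binding the active site. Urokinase converts plasminogen into plasmin, and its receptor holds it at the cell surface, where plasmin degrades fibrin and can also activate pro-metalloproteinases. Macrophages use both systems during migration and tissue remodelling, and IL-4 is the classical stimulus of alternative (M2) activation.

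Totals per library lay between 20011771 and 39632751 counts after rounding. Lyz2, which is disrupted by the Cre insertion, was at 7030 to 10544 CPM (counts relative to the library total, scaled by TMM) in WT M0 and at 22.1 to 33.2 CPM in KO M0, so the genotype labels matched this locus. Effects of the loss of IGF2BP2 and of the loss of Lyz2 on any gene cannot be told apart. Igf2bp2 itself, counted over the whole gene, was at 76.5 to 118 CPM in WT M0 and at 84.9 to 95.9 CPM in KO M0. In M2 it was at 178 to 233 CPM in WT and at 129 to 146 CPM in KO, with a log2 fold change of -0.65 (edgeR adjusted p = 0.0285). The 6 macrophage markers summed to 4327 to 4716 CPM in WT M0 and 4720.1 to 4822 CPM in KO M0, without overlap, and to 5254 to 5625 CPM and 5265 to 5473 CPM in WT and KO M2. Of these 6 markers, Itgam was called between the genotypes, higher in KO M0 (log2 fold change 0.45, edgeR adjusted p = 0.0040). The IL-4 response genes Retnla, Chil3 and Mrc1 rose in both genotypes. Mrc1 was lower in KO M0 (log2 fold change -0.86, edgeR adjusted p = 0.00052), and its IL-4 response was larger in KO (difference 0.69, edgeR adjusted p = 0.0233). The 8 neutrophil markers summed to 9.27 to 24.1 CPM in WT M0 and 5.84 to 6.17 CPM in KO M0. The 7 stromal markers summed to 30.6 to 54.8 CPM in WT M0 and 8.38 to 31.1 CPM in KO M0. In M2 macrophages, neutrophil sums were 5.01 to 14.1 CPM in WT and 5.31 to 6.52 CPM in KO. Stromal sums there were 33.5 to 61.2 CPM in WT and 9.29 to 27.2 CPM in KO.

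Mmp13, Mmp12 and Mmp8 lie on the same strand of chromosome 9 within 296.0 kb, in a cluster of 10 Mmp genes that spans 427.1 kb (GENCODE M21 on GRCm38). Mmp13 (ENSMUSG00000050578.9) covers chr9:7272514-7283331. Mmp12 (ENSMUSG00000049723.8) begins 61.0 kb further on and covers chr9:7344381-7369499. Mmp8 (ENSMUSG00000005800.2) covers chr9:7558456-7568485. Mmp14 (ENSMUSG00000000957.8) is at chr14:54431612-54445364 on the plus strand and Mmp19 (ENSMUSG00000025355.6) at chr10:128790910-128800824 on the plus strand. Timp1 (ENSMUSG00000001131.5) is at chrX:20870166-20874735 on the plus strand and Timp2 (ENSMUSG00000017466.3) at chr11:118301069-118355740 on the minus strand. Adam8 (ENSMUSG00000025473.10) is at chr7:139978932-139992562 on the minus strand, Plaur (ENSMUSG00000046223.9) at chr7:24462484-24475968 on the plus strand and Plau (ENSMUSG00000021822.2) at chr14:20836660-20843385 on the plus strand. Timp1 lies inside Syn1 on the opposite strand and had 75 to 127 counts per library against 696 to 1704 for Syn1. Mmp19 (329 to 878 counts) overlaps the opposite-strand genes Gm47093 and Tmem198b, the latter with 257 to 516 counts. The library kit keeps strand, but the strand setting of the counting was not given in the sources used here, so the values of Timp1 and Mmp19 may include reads of these neighbours. The overlapping Mmp1b had 0 to 2 counts against 12299 to 45654 for Mmp12, and Cep295nl had 5 to 25 counts against 2344 to 4943 for Timp2.

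The sequences just upstream of 4 of the genes are shown. IL-4 raised Mmp12 and Mmp13 and lowered Plaur, and Mmp8 was called between the genotypes in both treatments. Each holds the 150 bases before the RefSeq transcript start (GRCm38.p6), 5′ to 3′ on the strand of the gene. Capitals mark the AP-1 motif TGANTCA. The sequences shown for Mmp13, Mmp12 and Plaur hold this motif. Mmp14, Timp2 and Adam8 also responded to IL-4, but the sequences before their starts lacked it and are not shown. The first start of Mmp12 lacked it too and is not shown. The positions are chr9:7272364-7272513, plus strand for Mmp13, chr9:7347224-7347373, plus strand for the second of the 2 RefSeq starts of Mmp12, which lies within the annotated gene, chr7:24462333-24462482, plus strand for Plaur and chr9:7558279-7558428, plus strand for Mmp8.
Mmp13: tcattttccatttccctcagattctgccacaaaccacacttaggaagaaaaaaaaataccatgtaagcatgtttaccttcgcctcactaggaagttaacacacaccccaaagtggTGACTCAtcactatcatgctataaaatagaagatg
Mmp12: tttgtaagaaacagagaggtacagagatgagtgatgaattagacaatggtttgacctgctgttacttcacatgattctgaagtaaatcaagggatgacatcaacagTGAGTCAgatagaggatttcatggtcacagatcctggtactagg
Plaur: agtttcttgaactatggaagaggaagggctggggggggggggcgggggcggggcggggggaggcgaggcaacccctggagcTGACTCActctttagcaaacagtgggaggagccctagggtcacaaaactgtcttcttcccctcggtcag
Mmp8: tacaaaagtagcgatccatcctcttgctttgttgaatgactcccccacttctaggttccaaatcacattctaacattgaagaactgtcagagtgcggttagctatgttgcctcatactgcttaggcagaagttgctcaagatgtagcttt

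RefSeq windows of 300 bases (250 before to 50 after a start) were found for 8 of the 10 genes, all but Mmp19 and Plau. Searched on both strands, the AP-1 motif was present in 3 of these 8 genes. Its first base stood 35 bases before the start in Mmp13, 44 bases before the second start in Mmp12 and 69 bases before the start in Plaur. Of all 32851 windows 7.81% held it, and of all 27025 genes with a window 8.97% did. The motif thus stood in front of genes that IL-4 raised and of a gene that IL-4 lowered. Mmp14, Timp2 and Adam8 also responded to IL-4, and their windows did not hold it. The STAT6 motif TTCNNNNGAA, searched on both strands and present in 6.95% of all windows, was not among the letters of any of the 8 genes. TATAAA, searched on the strand of the gene, began 16 bases before the start of Mmp13 and at base 5 of the transcript from the second start of Mmp12 (the start being base 1), and 8.32% of all windows held it.

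Levels between genes were compared as TPM, which are scaled for transcript length. Adam8, a cell-surface sheddase of leukocytes, was at 2005 ± 231 TPM in WT M0 and 2826 ± 331 TPM in WT M2 (mean ± SD, n = 3). This placed it at rank 41 and rank 26 of all genes, and in KO it was at rank 36 in M0 and rank 23 in M2. Adam8 was above every other member in all 12 libraries. In WT M0, Plau with 527 ± 96.9 TPM and Mmp12 with 523 ± 43.1 TPM followed with overlapping libraries. Plaur (195 ± 12.7 TPM), Timp2 (93.3 ± 4.97 TPM), Mmp13 (32.8 ± 2.35 TPM) and Mmp8 (16.8 ± 3.01 TPM) came next, each without overlap with the one before it. Mmp19 (12.96 ± 1.39 TPM) overlapped Mmp8, and Timp1 (8.19 ± 1.95 TPM) and Mmp14 (5.53 ± 1.37 TPM) overlapped each other at the lower end. In KO M0, Mmp12 (723 ± 3.73 TPM) stood above Plau (401 ± 43.9 TPM) without overlap. In M2 macrophages Mmp13 moved above Timp2 and Plaur in both genotypes (247 ± 50.6 TPM in WT, 222 ± 18.1 TPM in KO). Mmp14 had the lowest mean in all groups and reached only 1.56 ± 0.509 TPM in WT M2 and 1.35 ± 0.405 TPM in KO M2.

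To find out whether the protease genes depended on IGF2BP2 in resting macrophages, KO M0 was compared with WT M0. With edgeR (12846 genes fitted, called at an adjusted p under 0.05), 4 of the 10 genes were called. Mmp8, Mmp12 and Mmp13 were higher and Timp2 was lower in KO. Of all genes fitted 9.78% were called, 5.50% higher and 4.27% lower. The libraries of the genotypes did not overlap in CPM for 5 of the 10 genes, compared with 31.1% of all genes. The median log2 fold change of the 10 genes was 0.04 and that of all genes was -0.0007. By the study's description of its samples each group held 3 mice, and the labels number the libraries. The spread behind the p-values was estimated over all 12 libraries, with M0 and M2 libraries taken as independent. With only the 6 M0 libraries compared, 967 genes were called, 4 members among them.

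Mmp8, a collagenase best known from neutrophil granules, was at 17.1, 24.6 and 24.8 CPM in the 3 WT M0 libraries and at 45.7, 34.8 and 44.4 CPM in the 3 KO M0 libraries. All KO libraries were above all WT libraries. The increase was 1.88-fold, with a log2 fold change of 0.91 (SE 0.15, 95% confidence interval 0.59 to 1.23, edgeR adjusted p = 0.0031). It was called in all 8 other settings and in all 6 fits that left out a library. Of the 8 neutrophil markers, Ltf, Ngp and S100a9 were called lower in KO M0, S100a8 was not called (edgeR adjusted p = 0.178), and 4 had too few counts to be fitted, among them Ly6g with 0 counts in all 12 libraries. In M2, 0 of the 4 fitted markers were called by edgeR, with an unadjusted p of 0.0371 for S100a9 and 0.0299 for Ltf and above 0.05 for Ngp and S100a8. The part of neutrophils in the Mmp8 values was not tested.

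Mmp12, the macrophage elastase, was at 496, 441 and 479 CPM in WT M0 and at 670, 682 and 686 CPM in KO M0. Its KO libraries lay close together and above every WT library. The log2 fold change was 0.53 (SE 0.05, 95% confidence interval 0.41 to 0.64, edgeR adjusted p = 0.00015), which is 1.44-fold. This call, too, held in all 8 other settings and in all 6 fits without a library.

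Mmp13, a collagenase with a preference for fibrillar collagen, was at 42.0, 48.8 and 50.9 CPM in WT M0 and at 65.2, 68.5 and 60.0 CPM in KO M0. The groups did not overlap, and the log2 fold change was 0.45 (SE 0.13, edgeR adjusted p = 0.0489). The adjusted p was close to the threshold and lay between 0.0441 and 0.162 in the fits without a library, and it was under 0.05 only without WT M0 replicate 3. The call was also lost with limma on TPM.

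Timp2, an inhibitor that also takes part in the activation of pro-MMP2 on the cell surface, was at 100, 107 and 111 CPM in WT M0 and at 86.1, 80.3 and 81.1 CPM in KO M0. Here all KO libraries were lower, with a change of -0.36 on the log2 scale (SE 0.09, edgeR adjusted p = 0.0304). Without WT M0 replicate 1 the call was kept, and without any of the other 5 libraries it was lost (edgeR adjusted p between 0.0354 and 0.112 over the 6 fits). Stromal marker sums reached lower values in KO M0 than in WT M0 but overlapped (values above). Of the 5 stromal markers fitted, 0 were called by edgeR in M0, and 0 had an unadjusted p under 0.05 (lowest 0.0535, Col1a2). Their part in the Timp2 difference was not tested, nor was that of the macrophage markers in the differences of the Mmp genes. In RNA from whole cultures, fewer cells of a type and less RNA per cell cannot be told apart.

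Plau was at 760, 650 and 564 CPM in WT M0 and at 507, 447 and 560 CPM in KO M0. The lowest WT library was just above the highest KO library. The log2 fold change of -0.38 (SE 0.13) did not pass the test (edgeR adjusted p = 0.0886), although it was called with DESeq2 and without WT M0 replicate 3 (edgeR adjusted p = 0.038). The other 5 genes overlapped between the genotypes. Their log2 fold changes were 0.23 for Mmp14 (95% confidence interval -0.25 to 0.71), 0.03 for Mmp19 (-0.15 to 0.21), -0.24 for Timp1 (-0.76 to 0.29), 0.06 for Adam8 (-0.10 to 0.22) and -0.02 for Plaur (-0.17 to 0.13). For Timp1 and Mmp14, the genes with the lowest counts, the intervals were widest.

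**Figure D1:**
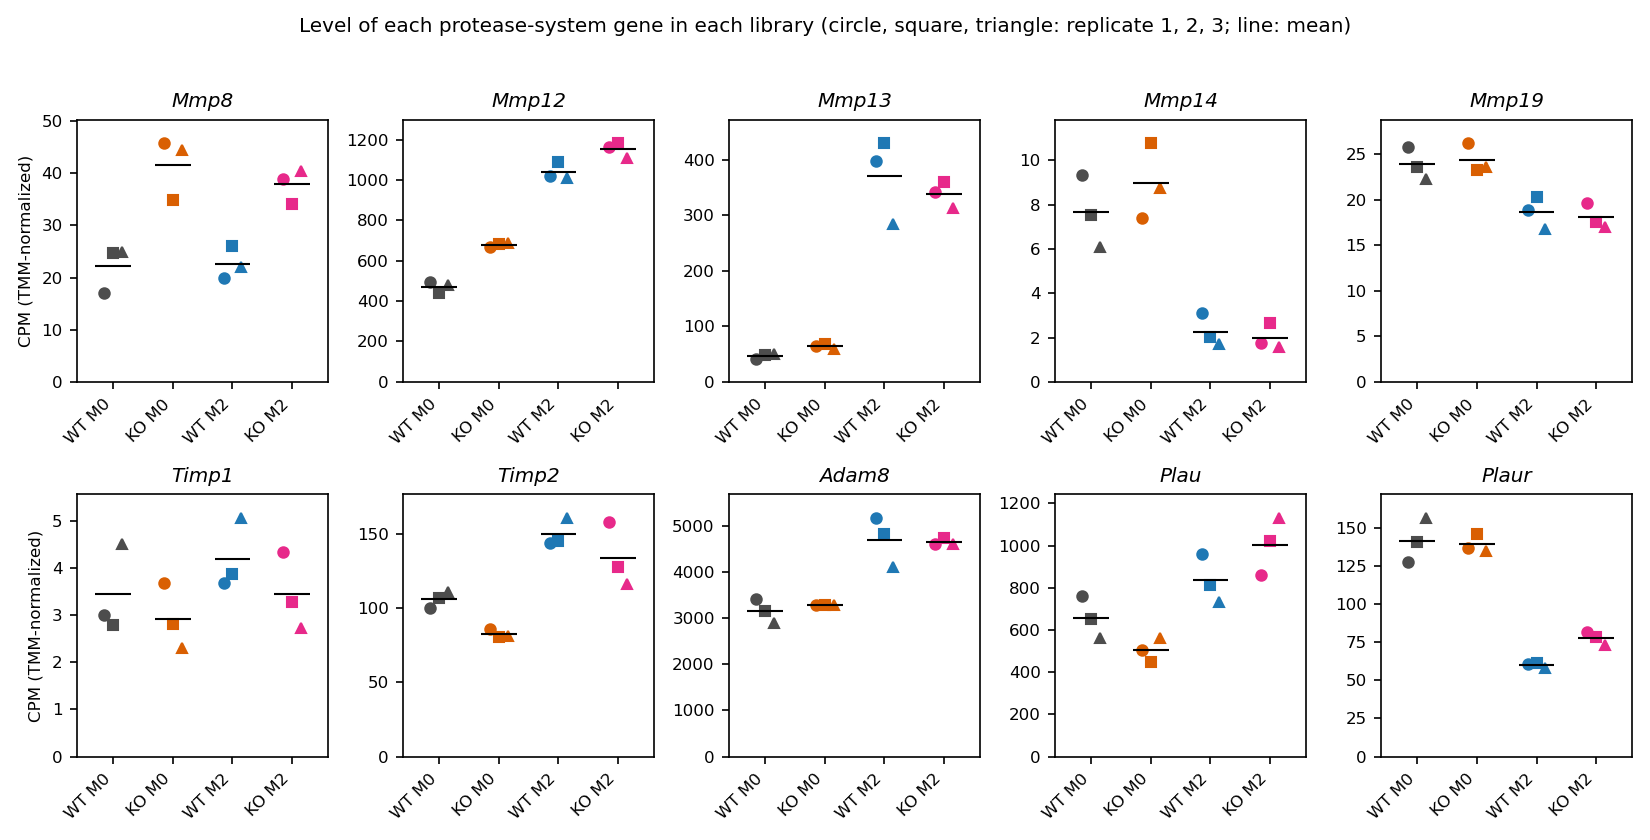
Level of each of the 10 genes in CPM (linear axes from 0) in the 12 libraries, with circles, squares and triangles for replicates 1, 2 and 3 and a line for the group mean. KO M0 libraries of Mmp8 (34.8 to 45.7 CPM) and Mmp12 (670 to 686 CPM) sit above all WT M0 libraries, and the M2 libraries of Mmp13 sit far above the M0 libraries in both genotypes.

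The same comparison was made after IL-4. In M2 macrophages 2 of the 10 genes, Mmp8 and Plaur, were called, both higher in KO, whereas 2.68% of all genes were called (1.21% higher and 1.46% lower). The libraries did not overlap for 3 of the 10 genes, compared with 24.8% of all genes, and the median log2 fold change was -0.03 for the 10 genes and -0.0009 for all genes.

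Mmp8 was at 19.9, 26.0 and 22.0 CPM in WT M2 and at 39.0, 34.2 and 40.5 CPM in KO M2. As in M0, all KO libraries exceeded all WT libraries, and the log2 fold change was 0.74 (SE 0.15, 95% confidence interval 0.42 to 1.07, edgeR adjusted p = 0.0274). The call was lost in each of the 6 fits without a library (WT M2 or KO M2 replicate 1, 2 or 3), in which the log2 fold change was between 0.66 and 0.86 and the edgeR adjusted p between 0.0525 and 0.0998. It was also lost with limma on log2(TPM + 1) or log2(TPM + 0.1) (limma adjusted p = 0.0562 and 0.0594).

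Plaur, the receptor that holds urokinase at the cell surface, was at 60.6, 61.4 and 58.2 CPM in WT M2 and at 81.7, 78.9 and 73.1 CPM in KO M2. The genotypes thus differed in M2 without overlap, with a log2 fold change of 0.37 (SE 0.07, 95% confidence interval 0.22 to 0.53, edgeR adjusted p = 0.0229). In M0 the values were 128 to 157 CPM in WT and 135 to 146 CPM in KO. The M2 call was kept without KO M2 replicate 1 and lost without any of the other 5 libraries (edgeR adjusted p between 0.0473 and 0.083 over the 6 fits).

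Mmp12 was at 1020.3, 1089.5 and 1011 CPM in WT M2 and at 1165, 1181 and 1111 CPM in KO M2. The groups did not overlap, but the log2 fold change was only 0.15 (95% confidence interval 0.04 to 0.26, edgeR adjusted p = 0.137). Mmp13 was at 398, 430 and 284 CPM in WT M2 and at 343, 361 and 313 CPM in KO M2, with the KO libraries inside the range of the WT libraries (log2 fold change -0.13, 95% confidence interval -0.40 to 0.14). Plau had values of 959, 815 and 732 CPM in WT M2 and 862, 1021 and 1130.4 CPM in KO M2. Its log2 fold change of 0.27 did not pass the test (SE 0.13, edgeR adjusted p = 0.278).

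Timp2 was at 144, 145 and 161 CPM in WT M2 and at 158, 128 and 116 CPM in KO M2, where replicate 1 stood above the other KO libraries. The log2 fold change was -0.16 (edgeR adjusted p = 0.348), and without KO M2 replicate 1 it was -0.30 with an adjusted p of 0.0431. The 5 fitted stromal markers were all lower in KO M2 without overlap (median log2 fold change -1.21). By edgeR 0 of them were called, and Col1a2, Col1a1, Dcn and Pdgfrb had an unadjusted p under 0.05 (0.0130, 0.0191, 0.0223 and 0.0285). Their part in the Timp2 values was not tested. For Mmp14, Mmp19, Timp1 and Adam8 the values of the genotypes overlapped in M2, and their log2 fold changes lay between -0.29 (Timp1) and -0.01 (Adam8).

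**Figure D2:**
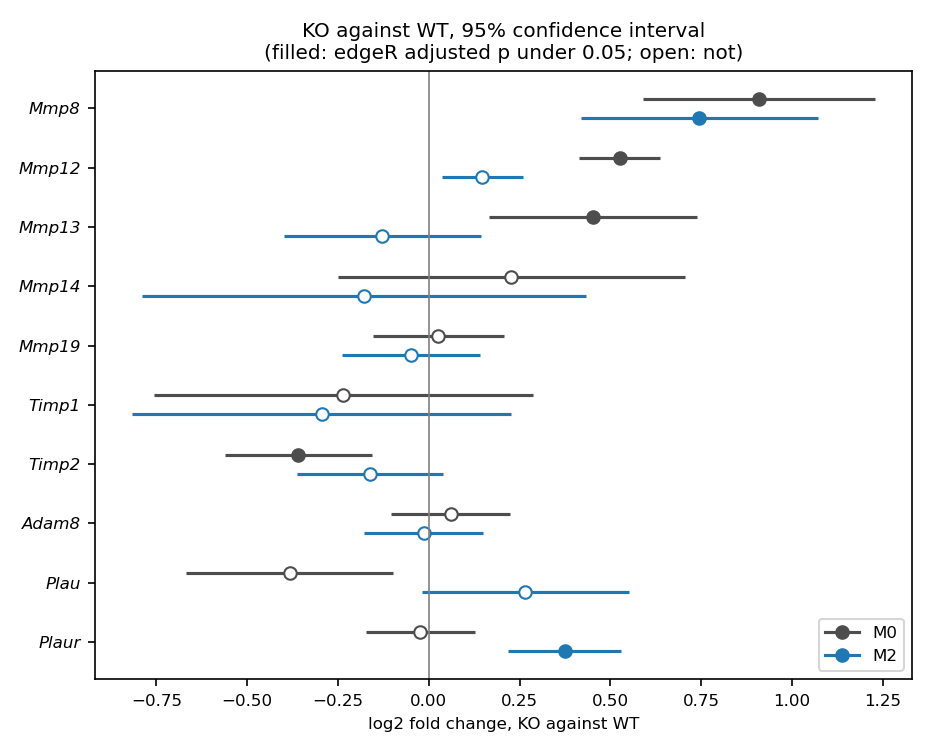
Log2 fold change of KO against WT for the 10 genes in M0 (grey) and M2 (blue), with points for the edgeR estimate, bars for the 95% confidence interval and filled points for an adjusted p under 0.05. Mmp8 is to the right of 0 in both treatments, Mmp12 and Mmp13 are filled in M0 only, and Plaur is filled in M2 only.

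Next, the effect of IL-4 was examined in each genotype. In WT, 8 of the 10 genes were called, 5 higher and 3 lower in M2 than in M0, while 50.0% of all genes were called (24.9% higher and 25.1% lower). In KO, the same 8 genes were called in the same directions, while 52.8% of all genes were called (26.8% higher and 26.0% lower). The M0 and M2 libraries did not overlap for 7 of the 10 genes in WT, compared with 55.2% of all genes, and for 8 in KO, compared with 63.4% of all genes. Median log2 fold changes of the 10 genes were 0.32 in WT and 0.37 in KO, against -0.0076 and 0.014 for all genes.

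Mmp13 had the largest response of the 10 genes. Its libraries went from the range of 42.0 to 50.9 CPM in WT M0 to that of 284 to 430 CPM in WT M2, which gave 2.97 on the log2 scale (SE 0.14, edgeR adjusted p = 2.3e-09). In KO they went from the range of 60.0 to 68.5 CPM to that of 313 to 361 CPM, which gave 2.39 (SE 0.13, edgeR adjusted p = 1.3e-08). These changes correspond to 7.85-fold in WT and 5.25-fold in KO. Mmp12 rose by 1.14 on the log2 scale in WT (SE 0.05, edgeR adjusted p = 2e-09) and by 0.76 in KO (SE 0.05, edgeR adjusted p = 7e-08). Mmp8, which lies in the chromosome 9 cluster with Mmp12 and Mmp13, did not pass the test, with log2 fold changes of 0.03 in WT (95% confidence interval -0.31 to 0.37) and -0.14 in KO (-0.44 to 0.17).

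Mmp14, a membrane-anchored metalloproteinase that activates pro-MMP2, fell with IL-4. Its values were 9.35, 7.56 and 6.08 CPM in WT M0 and 3.09, 2.01 and 1.69 CPM in WT M2. In KO they were 7.38, 10.8 and 8.74 CPM in M0 and 1.77, 2.64 and 1.59 CPM in M2. All M2 libraries were below all M0 libraries, and the log2 fold changes were -1.75 in WT (SE 0.26, edgeR adjusted p = 9.8e-05) and -2.16 in KO (SE 0.24, edgeR adjusted p = 8.7e-06). Mmp19, a secreted metalloproteinase of basement membrane substrates, fell as well, from 25.7, 23.6 and 22.3 to 18.9, 20.3 and 16.8 CPM in WT and from 26.2, 23.3 and 23.6 to 19.7, 17.5 and 17.04 CPM in KO. Its decrease was small, with log2 fold changes of -0.36 in WT (SE 0.09, edgeR adjusted p = 0.0042) and -0.43 in KO (SE 0.08, edgeR adjusted p = 0.00079).

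Of the inhibitors, Timp2 rose by 0.50 on the log2 scale in WT (SE 0.09, edgeR adjusted p = 0.0006) and by 0.70 in KO (SE 0.09, edgeR adjusted p = 3.7e-05). Timp1, an inhibitor of most secreted metalloproteinases, was at 3.01, 2.79 and 4.52 CPM in WT M0 and 3.68, 3.87 and 5.06 CPM in WT M2. It was at 3.67, 2.81 and 2.30 CPM in KO M0 and 4.33, 3.29 and 2.72 CPM in KO M2. Within each library number the M2 value was the higher one, by 1.12-fold to 1.38-fold in WT and 1.17-fold to 1.18-fold in KO. The change did not pass the test (log2 fold change 0.29 in WT, edgeR adjusted p = 0.341, and 0.23 in KO, edgeR adjusted p = 0.437).

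Adam8 rose from 3432, 3154 and 2896 CPM in WT M0 to 5180, 4827 and 4122 CPM in WT M2. In KO it rose from 3294, 3298 and 3294 CPM in M0 to 4621, 4746 and 4622 CPM in M2. The KO M0 libraries were almost equal. The responses had log2 fold changes of 0.58 in WT (SE 0.08, edgeR adjusted p = 3.8e-05) and 0.50 in KO (SE 0.08, edgeR adjusted p = 0.00011).

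Urokinase and its receptor moved in opposite directions. Plau rose by 0.34 on the log2 scale in WT (SE 0.13, edgeR adjusted p = 0.0453) and by 0.99 in KO (SE 0.13, edgeR adjusted p = 3.9e-05). The WT call was lost in 4 fits, those without WT M0 replicate 2 or 3 or WT M2 replicate 1 or 2 (edgeR adjusted p between 0.0141 and 0.194 over the 6 fits). It was also lost with at least 1 CPM in 3 libraries (edgeR adjusted p = 0.0508), with only the 6 libraries compared (edgeR adjusted p = 0.0599) and with limma on TPM (limma adjusted p = 0.154), while the edgeR adjusted p was 0.0014 with the library number as a block. Plaur had log2 fold changes of -1.24 in WT (SE 0.07, edgeR adjusted p = 1.9e-08) and -0.84 in KO (SE 0.07, edgeR adjusted p = 4.9e-07), and all its M2 libraries were below all M0 libraries.

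Whether the response to IL-4 depended on the genotype was tested as the difference between the log2 fold changes (KO minus WT). Of the 10 genes 1, Mmp12, was called, compared with 3.24% of all genes (1.11% higher and 2.13% lower). The M2 to M0 ratio of Mmp12 within a library number was 2.06, 2.47 and 2.11 in WT and 1.74, 1.73 and 1.62 in KO. Every KO ratio was below every WT ratio, and the difference was -0.38 on the log2 scale (SE 0.07, 95% confidence interval -0.53 to -0.22, edgeR adjusted p = 0.0154). The adjusted p was 0.0512 without KO M2 replicate 3 and under 0.05 without any other library. The KO M0 and WT M0 libraries enter this test and the M0 comparison alike, so the higher M0 level of Mmp12 in KO and its smaller increase are not separate observations.

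For Plau the ratios came to 1.26, 1.25 and 1.30 in WT and to 1.70, 2.28 and 2.02 in KO. All KO ratios were higher. The difference of 0.65 (SE 0.19, 95% confidence interval 0.25 to 1.05) missed the threshold (edgeR adjusted p = 0.0811) but passed it with the library number as a block (edgeR adjusted p = 0.0051). It was also under 0.05 with DESeq2, without a filter on low counts and without WT M0 replicate 3 (edgeR adjusted p = 0.0458). Plaur had ratios of 0.474, 0.435 and 0.371 in WT and 0.595, 0.539 and 0.541 in KO. All KO ratios were above all WT ratios, with a difference of 0.40 (SE 0.10, 95% confidence interval 0.18 to 0.61) that also missed the threshold by little (edgeR adjusted p = 0.050029). It passed it with the library number as a block (edgeR adjusted p = 0.0284), with DESeq2, without a filter on low counts, with at least 1 CPM in 3 libraries and without WT M0 replicate 1 (edgeR adjusted p = 0.0116).

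Mmp13 had ratios of 9.47, 8.82 and 5.58 in WT and 5.26, 5.28 and 5.21 in KO, so that the KO libraries responded almost equally and below every WT ratio. The difference was -0.58 (SE 0.18, 95% confidence interval -0.97 to -0.19, edgeR adjusted p = 0.107). WT M2 replicate 3 had the lowest ratio of the WT libraries, and the adjusted p without it was 0.0104. The difference was also called with DESeq2. Mmp14 had ratios of 0.331, 0.266 and 0.278 in WT and 0.240, 0.245 and 0.182 in KO. All KO ratios were lower here as well, but the difference of -0.41 did not pass the test (edgeR adjusted p = 0.598). For the other 5 genes the ratios of the genotypes overlapped, and the difference lay between -0.16 (Mmp8) and 0.20 (Timp2). None of these 6 genes was called in any setting. The share of all genes whose ratios separate between the genotypes was not counted. Of the genes with separate ratios, only Mmp12 was called in the fit without a block.

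**Figure D3:**
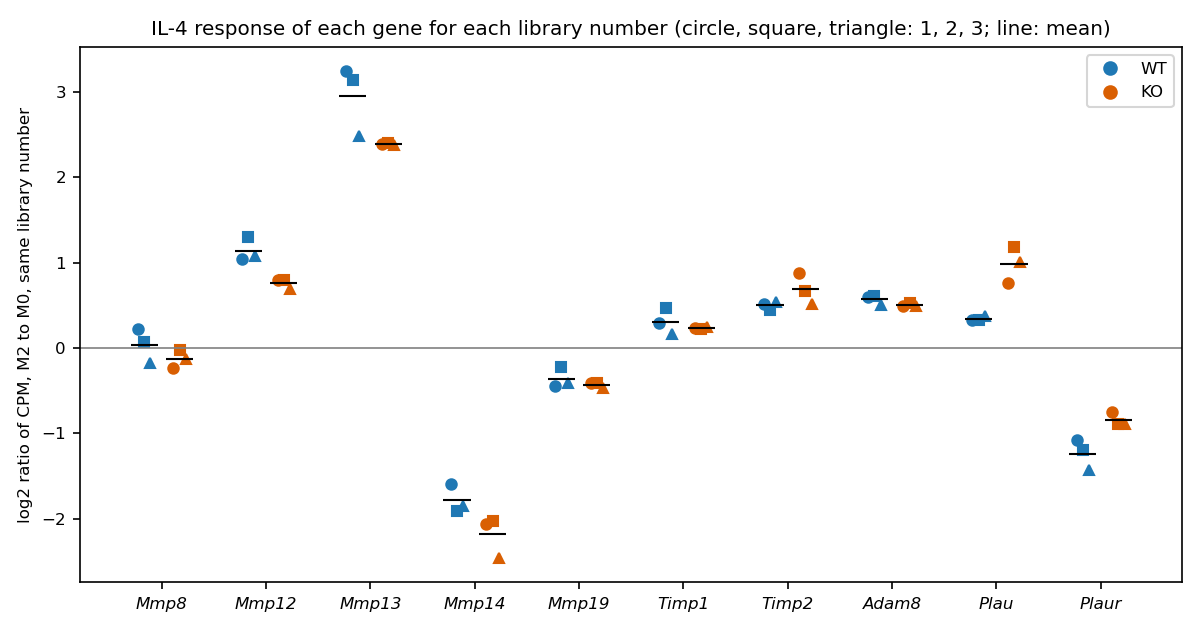
Log2 ratio of CPM in M2 to CPM in M0 of the same library number for the 10 genes in WT (blue) and KO (orange), with circles, squares and triangles for numbers 1, 2 and 3 and a line for the mean. The KO ratios of Mmp12, Mmp13 and Mmp14 are below and those of Plau and Plaur above all WT ratios. Of these genes only Mmp12 was called in the fit without a block, and the share of all genes that separate was not counted.

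TPM of the members were added up in each library. The sums leave out all other Mmp genes, among them the abundant Mmp9. The 5 MMP genes summed to 638, 567 and 569 TPM in WT M0 and to 825, 813 and 820 TPM in KO M0. The TIMP genes summed to 95.1, 103 and 106 TPM and to 83.3, 78.3 and 77.5 TPM. The MMP to TIMP ratio was 5.85 ± 0.743 in WT M0 and 10.3 ± 0.348 in KO M0 (mean ± SD, n = 3), without overlap. After IL-4 it was 9.96 ± 1.04 in WT M2 and 11.8 ± 1.76 in KO M2, with overlap. Mmp12 alone made up 77.9% to 89.8% of the sum of these 5 genes in the 12 libraries. Mmp13 contributed 4.72% to 6.05% in M0 and 15.1% to 20.0% in M2. The ratio of Plau to Plaur was 3.45, 2.67 and 2.09 in WT M0 and 2.15, 1.78 and 2.41 in KO M0. It was higher in all M2 libraries, at 9.19, 7.71 and 7.32 in WT and 6.14, 7.53 and 8.99 in KO. These ratios describe mRNA, and no test was made on them.

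**Figure D4:**
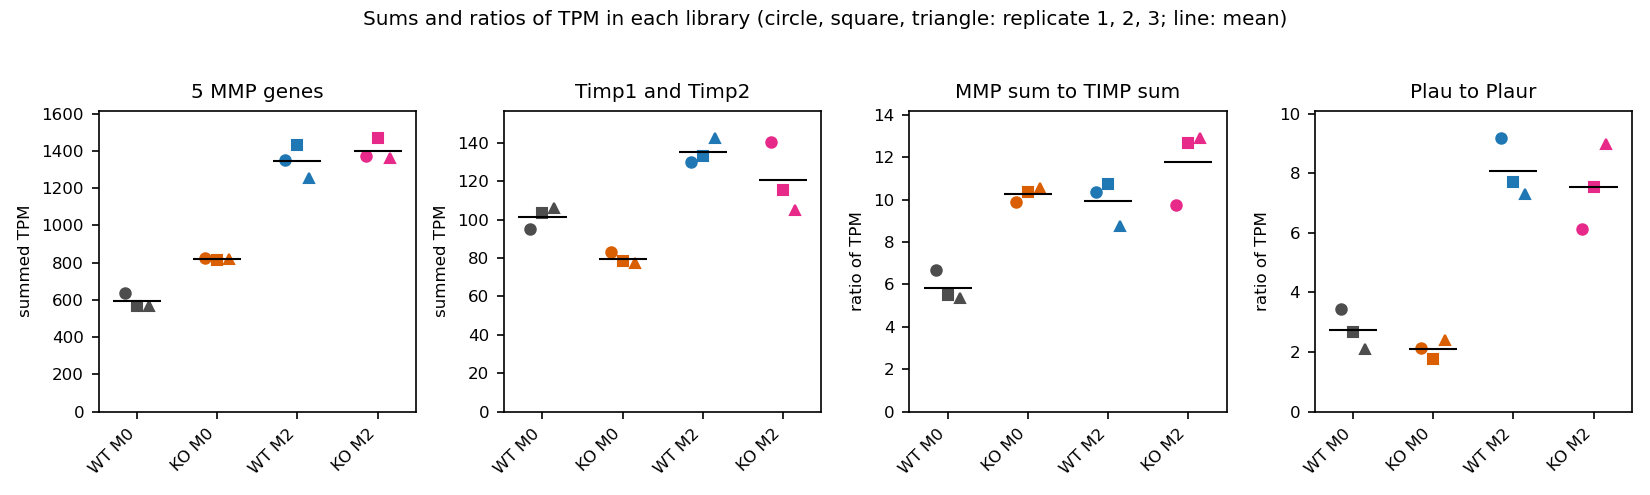
Summed TPM of the 5 MMP genes among the members (without Mmp9), summed TPM of Timp1 and Timp2, the ratio of these sums and the ratio of Plau to Plaur in each library (linear axes from 0), with circles, squares and triangles for replicates 1, 2 and 3 and a line for the mean of each group. The MMP to TIMP ratio is 5.36 to 6.71 in WT M0 and 9.90 to 10.6 in KO M0, and the Plau to Plaur ratio is above 6 in all M2 libraries.

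Among 55 other genes of the same systems (18 Mmp genes, 8 further inhibitors and activators, 13 Adam and Adamts genes and 16 genes of the plasminogen system), 29 had enough counts to be fitted. Plasminogen itself had 0 counts in all 12 libraries. In M0, 3 of the 29 were called (2 higher and 1 lower in KO), and in M2 1 was called (higher in KO), compared with 9.78% and 2.68% of all genes. The median log2 fold changes were -0.09 and -0.12.

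Itgb3, the β3 integrin subunit that binds vitronectin next to the urokinase receptor, was lower in KO M0 (0.588, 0.716 and 0.830 CPM) than in WT M0 (1.71, 1.41 and 1.402 CPM), with a change of -1.07 on the log2 scale (SE 0.17, edgeR adjusted p = 0.0031). Adam15, a membrane metalloproteinase, was higher in KO by a log2 fold change of 0.21 in M0 (edgeR adjusted p = 0.0194) and 0.23 in M2 (edgeR adjusted p = 0.0338). Eno1, a glycolytic enzyme that also serves as a plasminogen receptor, was higher in KO M0 by 0.23 on the log2 scale (edgeR adjusted p = 0.0252). The call of Adam15 was lost in M0 without WT M0 replicate 1 or 2 or KO M0 replicate 2 or 3 (edgeR adjusted p up to 0.0859) and in M2 without any library but WT M2 replicate 3 (up to 0.135). That of Eno1 was lost without any library but WT M0 replicate 3 (edgeR adjusted p up to 0.0973). With only the 6 libraries compared, the calls of Adam15 in M0 and M2 and of Eno1 in M0 were lost. With limma, Adam15 lost the M0 call on log2(TPM + 0.1) and the M2 call on either scale, and Itgb3 lost the M0 call on log2(TPM + 1).

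The gelatinases Mmp2 and Mmp9 are named because the study measured them by qPCR in other settings. Mmp2 was scarce, between 0.215 and 0.873 CPM in all libraries. Mmp9 was abundant, at 494, 385 and 368 CPM in WT M0 and 425, 429 and 343 CPM in KO M0. After IL-4 it was at 655, 663 and 462 CPM in WT M2 and 426, 420 and 294 CPM in KO M2. All KO M2 libraries of Mmp9 were below all WT M2 libraries. The log2 fold change was -0.64 (SE 0.17, 95% confidence interval -1.01 to -0.27, edgeR adjusted p = 0.0675), and the adjusted p was 0.0332 without WT M2 replicate 3. It was also under 0.05 with DESeq2 and without a filter on low counts.

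IL-4 changed 13 of the 29 genes in WT (8 higher and 5 lower) and 12 in KO (6 higher and 6 lower), compared with 50.0% and 52.8% of all genes, with median log2 fold changes of -0.01 and -0.04. Itgb3 rose most, to 40.7, 44.8 and 49.3 CPM in WT M2 and 42.4, 40.6 and 39.2 CPM in KO M2, with log2 fold changes of 4.89 in WT (SE 0.11, edgeR adjusted p = 5.3e-12) and 5.81 in KO (SE 0.12, edgeR adjusted p = 2.8e-12). Adam9, a sheddase, rose by 1.04 in WT and 0.90 in KO on the log2 scale (edgeR adjusted p = 5.8e-09 and 2e-08). Furin, a convertase that removes the propeptide of Mmp14, rose by 0.66 and 1.07 (edgeR adjusted p = 1.9e-06 and 1.8e-08). Reck, a membrane-anchored inhibitor of metalloproteinases, fell by 1.20 and 0.76 on the log2 scale (edgeR adjusted p = 0.00026 and 0.0038). Mmp9 rose in WT by 0.51 on the log2 scale (edgeR adjusted p = 0.0239), a call kept without WT M0 replicate 1 or WT M2 replicate 3 and lost without any of the other 4 libraries (up to 0.0958) and with limma on TPM. In KO its log2 fold change was -0.07 (edgeR adjusted p = 0.761). The difference of the Mmp9 responses was -0.58 (edgeR adjusted p = 0.229), and with the library number as a block it was -0.59 (edgeR adjusted p = 0.0141). Serpinb2, an inhibitor of urokinase, was at most 0.935 CPM in any library. Its fall by 1.48 in KO (edgeR adjusted p = 0.0431) was lost in all 6 fits without a library (edgeR adjusted p between 0.053 and 0.118), with the block (edgeR adjusted p = 0.0598), with DESeq2 and with limma. The difference between the genotypes in the IL-4 response was called for Furin and Itgb3, 2 of the 29, compared with 3.24% of all genes.

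**Figure D5:**
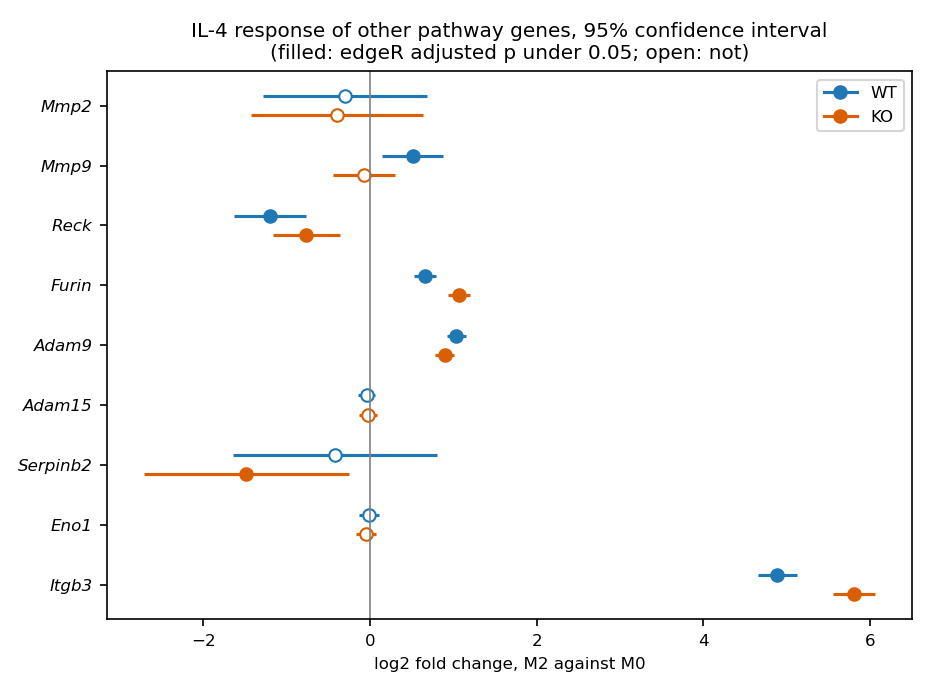
Log2 fold change of M2 against M0 in WT (blue) and KO (orange) for 9 other genes of the 2 protease systems, with points for the edgeR estimate, bars for the 95% confidence interval and filled points for an adjusted p under 0.05. Itgb3 is far to the right in both genotypes (4.89 and 5.81), and Reck is left of 0 in both (-1.20 and -0.76).

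For the genes that differed between the genotypes or responded to IL-4 by at least 1 on the log2 scale, the genes with the most similar profile of log2 CPM over the 12 libraries were listed. Because the libraries form 4 groups that share genotype and treatment, Pearson's r over them is a description only. Mmp8 was most like Stac2 (r = 0.935), Dynlt2b (r = 0.900) and Alg9 (r = 0.890). Mmp12 was most like Pi4k2a (r = 0.995), Pcyt1a (r = 0.992) and Snd1 (r = 0.991), and Mmp13 like Dse, Kcnk6 and Zfp36l1 (each r = 0.996). The profile of Mmp14 was closest to those of Fnbp1, Pde1b and Dusp1 (each r = 0.985). That of Timp2 was closest to Mesd (r = 0.983), Mrpl47 (r = 0.980) and Ptms (r = 0.972), and that of Plaur to Gadd45g (r = 0.990), Ehd1 (r = 0.989) and Avpi1 (r = 0.988). None of the 10 genes was among those listed for these 6.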

How the data were processed

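RNA-Seq libraries of WT and IGF2BP2 KO BMMs, poly(A)-selected and made with a directional kit, were read as single ends. Per the labels and the study's methods, the authors mapped the reads to GRCm38 (mm10) with the Grape-nf pipeline and deposited 1 table per library with expected counts, which are estimated reads per gene, and TPM, and the submitters' processing notes name FastQC 0.11.2 and DESeq2 1.40.2. The deposited tables of the authors' own comparisons hold their fold changes and p-values, and only gene symbols were taken from them. Groups came from the labels.

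Expected counts were rounded and fitted with edgeR 4.0.16 (TMM factors, filterByExpr, 1 coefficient per group over all 12 libraries, quasi-likelihood test) in R 4.3.3, and p was adjusted over 12846 genes by the Benjamini-Hochberg method. The biological coefficient of variation was 8.1%. Values were summarised in Python 3.11.15 with pandas 2.3.3 and numpy 2.4.6. TPM were used for levels between genes and with limma 3.58.1 on log2(TPM + 1) or log2(TPM + 0.1). Other settings were DESeq2 1.42.0, RLE size factors, other filters, a replicate block, only the 6 libraries compared, and leaving out each library. Libraries of the same number in M0 and M2 varied together (correlations of deviations from group means of 0.331, 0.103 and 0.364 in WT and 0.166, 0.16 and 0.209 in KO) and were taken as pairs in the block setting for IL-4 and the difference, although the labels do not say that they share a mouse. The number did not pair the genotypes (-0.068 to 0.04). The values reported are from the fit without a block unless stated.

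The members and lists were chosen with earlier results of these data known. All 10 members are named with their values. Of the other pathway genes, those called between genotypes or in the difference of the responses, those called with a log2 fold change of at least 1 for IL-4, and Mmp2 and Mmp9 are named. A few listed genes are not reported here and were left out of the counts of their lists. For members called between genotypes or changed by at least 1 by IL-4, the 3 genes with the highest Pearson r are given. Promoter sequences are from RefSeq (GRCm38.p6). Reads, qPCR and protein data were not analysed here. For a single gene, the smallest p of an exact permutation test of 3 against 3 libraries is 0.1.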

Additional observations from a re-analysis of the deposited data

Results flagged for a closer look

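For 4 of the genes described, the test of the difference itself found unequal IL-4 responses in WT and KO in the fit without a block. They were 1 of the 10 members, 2 of the 29 other genes fitted and the marker Mrc1, compared with 3.24% of all genes. With the library number as a block, Plau, Plaur and Mmp9 were called as well (edgeR adjusted p = 0.0051, 0.0284 and 0.0141). Of all 12846 genes, 1003 were called with this block and 416 without it. Mmp12 rose less in KO, with a difference of -0.38 on the log2 scale (edgeR adjusted p = 0.0154). Furin rose more in KO, with a difference of 0.41 (SE 0.09, edgeR adjusted p = 0.026), as its values went from 103, 100 and 90.6 CPM in WT M0 to 155, 148 and 161 CPM in WT M2 and from 87.9, 88.4 and 79.9 CPM in KO M0 to 171, 189 and 178 CPM in KO M2, and this call was lost in 6 of the 12 fits without a library (WT M0 replicate 2, WT M2 replicate 2, KO M0 replicates 1 and 3, KO M2 replicates 2 and 3; edgeR adjusted p up to 0.0821) and with limma on TPM. Itgb3 also rose more in KO, with a difference of 0.93 (SE 0.19, edgeR adjusted p = 0.0218), and lost the call without KO M0 replicate 1 or 2 (edgeR adjusted p up to 0.0652) and with limma on TPM. Mrc1, an IL-4 response gene outside the protease systems, rose more in KO as well, with a difference of 0.69 (SE 0.14, edgeR adjusted p = 0.0233). Its mean was 145 CPM in KO M0 and 262 CPM in WT M0, and 2258 CPM in KO M2 and 2532 CPM in WT M2. For Itgb3 and Mrc1, as for Mmp12, the M0 difference and the difference between the responses are not separate observations.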

How the results depend on the processing

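Over the 10 genes, 5 comparisons and all settings, 684 single-gene values kept their direction and their side of the threshold, 34 lost the call, 14 gained it and 18 changed sign. The causes were not tested. The genes called in M0 were 1256, and 752 and 700 with limma on log2(TPM + 1) and log2(TPM + 0.1). In M2 they were 344, and 718 with DESeq2, 70 and 57 with limma and 165 with only the 6 libraries compared, and the members called went from 2 to 1 with either limma fit. For the difference between the responses they were 416, and 810 with DESeq2, 113 with either limma fit and 1003 with the replicate block (libraries of 1 genotype and number), and the members called went from 1 to 4 with DESeq2, 3 without a filter, 2 with at least 1 CPM in 3 libraries and 3 with the replicate block. The block changed no other call of the members. With the library number as a block between the genotypes, Mmp9 was called in M2 (edgeR adjusted p = 0.0059). The number did not pair the genotypes, so this block joins unrelated libraries and no conclusion is drawn from that call. For IL-4 in WT, 3202 genes were higher and 3226 lower, and 2277 and 3432 with limma on log2(TPM + 1). For IL-4 in KO, 3438 genes were higher and 3346 lower, and 2290 and 3555 with limma on log2(TPM + 1).

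Leaving out a library gave 461 to 1461 genes and 2 to 4 members called in M0, 25 to 298 and 0 to 2 in M2, 5606 to 6182 and 7 to 8 for IL-4 in WT, 6034 to 6367 and 8 for IL-4 in KO, and 183 to 643 and 0 to 2 for the difference. In M2, 0 members were called by edgeR in 5 of the 6 fits, while 3 to 5 had an unadjusted p under 0.05. Of all genes, 1823 of 13123 to 2820 of 13090 had one in these M2 fits. For the difference 0 members were called in 1 of 12 fits, with 4 to 5 at an unadjusted p under 0.05, compared with 1901 of 13123 to 2804 of 12999 genes.

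The values that changed sign were small. Without a library, log2 fold changes ranged in M0 from -0.021 to 0.084 for Mmp19, from -0.41 to 0.0046 for Timp1 and from -0.092 to 0.057 for Plaur, and in M2 from -0.45 to 0.13 for Mmp14, from -0.12 to 0.017 for Mmp19 and from -0.10 to 0.061 for Adam8. For IL-4 in WT, Mmp8 ranged from -0.13 to 0.12 and was at -0.021 and -0.022 with limma. The difference of Timp1 ranged from -0.30 to 0.12. Timp1 and Mmp14 had the fewest counts of the 10 genes.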
